A study of Mus musculus with 6 samples.

Results

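Sox1, Sox2, Sox3, Sox4, Sox5, Sox6, Sox8, Sox9, Sox11 and Sox21 encode transcription factors of the Sox family. They are a chosen set of members known from neural progenitors, neurons and astrocytes, which leaves out Sox10 and also Sox12. They were found by an exact match of gene symbol, and all 10 were present among the 23235 genes of the deposited tables. The libraries came from primary mouse cortical and hippocampal neurons prepared from embryos at day 15 and cultured for 17 days. All 3 groups received cytosine arabinoside (AraC), which kills dividing cells, at 1 uM on day 5, and lentivirus expressing short hairpin RNA on day 12. The groups of 2 libraries each were a control, whose hairpin the labels do not describe, an HDAC2 knockdown made with HDAC2 shRNAs, and a knockdown made with Sp3 shRNAs. HDAC2 is a histone deacetylase of corepressor complexes, Sp3 is a zinc finger protein that binds GC-rich promoter elements, and the series asks whether they regulate a common set of genes.

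Sox proteins bind DNA through a high-mobility-group (HMG) box, which contacts the minor groove and bends the helix, and they usually act beside a partner factor. They fall into groups by sequence. Group B1 (Sox1, Sox2 and Sox3) keeps neural cells in a progenitor state, and Sox21 of group B2 acts mostly as a repressor against it. Group C (Sox4 and Sox11) acts as progenitors turn into neurons, group D (Sox5 and Sox6) lacks an activation domain and modulates other Sox proteins, and group E (Sox8 and Sox9, with Sox10) is tied to the formation of glia. Sox5, Sox6 and Sox8 are also known from oligodendrocyte precursors, so the set is not free of genes of that lineage.

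The family resemblance is visible in the transcripts. The following stretches of 30 bases lie in the coding sequence at the start of the HMG box and are the part of the Sox2 transcript that is best kept across the other 9 genes. They are read from the longest coding transcript of each gene in GENCODE M21, and capitals mark bases that differ from Sox2.
Sox2: cgtcaagaggcccatgaacgccttcatggt
Sox1: GgtcaagCggcccatgaacgccttcatggt
Sox3: cgtcaagCgAcccatgaacgcGttcatggt
Sox21: cgtcaagCggcccatgaacgccttcatggt
Sox4: cAtcaagCggcccatgaacgccttTatggt
Sox11: cAtcaaACggcccatgaacgccttcatggt
Sox5: cAtAaagCgTccAatgaaTgccttcatggt
Sox6: cAtcaagCgAccAatgaaTgcGttcatggt
Sox8: cgtGaagCggcccatgaaTgccttcatggt
Sox9: cgtcaagCgAcccatgaacgccttcatggt
Sox21 differed from Sox2 at 1 base of this stretch, and Sox5 and Sox6 of group D differed at 6. Across whole transcripts, the longest exact run shared with any other Sox gene was 48 bases, between Sox4 and Sox11, and 45 bases between Sox1 and Sox3. Sox5 shared no more than 23 bases with its closest relative. How reads within such runs were assigned is not given in the sources used here. Structure also differs between the genes. Sox1, Sox2, Sox3, Sox4, Sox11 and Sox21 have 1 exon, Sox8 and Sox9 have 3, and the longest coding transcripts of Sox5 and Sox6 have 15 and 16.

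The authors' deposited tables give 1 FPKM (fragments per kilobase of transcript, scaled to the mapped total) per group and none per library, so no spread within a group can be shown. The error given with each log2 fold change is the standard error (SE) implied by the authors' test statistic. Whether the paired libraries within each group are separate cultures is not stated, so p-values may measure technical spread only. As a check of the labels, the authors' deposited tables give Hdac2 at 49.4 FPKM in control, 12.3 in HDAC2 and 38.8 in Sp3 knockdown, and Sp3 at 15.5, 26.7 and 5.82. Sp3 was thus also called higher in HDAC2 knockdown (q listed as 0 in the authors' deposited table). Hdac2 was called lower in Sp3 knockdown, at -0.35 ± 0.11 log2 (q = 0.00598 by the authors' deposited table), a call that centring removed (BH-adjusted normal p from the authors' statistic = 0.101). The distribution of all genes was shifted in both comparisons. The median log2 fold change of tested genes with at least 1 FPKM was 0.32 in HDAC2 knockdown and -0.13 in Sp3 knockdown, and values with that median subtracted are called centred below. The control FPKM is the same in both tables for 100% of genes, so both comparisons rest on the same control libraries.

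In control cultures the Sox genes spanned a range from 3.08 FPKM for Sox1 to 32.3 FPKM for Sox2 in the authors' deposited tables. Sox4 followed Sox2 at 31.1 FPKM, then came Sox11 at 17.6, Sox8 at 11.8, Sox9 at 11.1, Sox6 at 9.86, Sox21 at 7.78, Sox3 at 4.99 and Sox5 at 4.36, as deposited by the authors. Without values per library, whether neighbours in this order differ was not tested. Sox2 lay above 81.7% and Sox1 above 17.4% of the 13173 genes that reached 1 FPKM in control. In HDAC2 knockdown the authors' deposited table placed Sox4 (85.8 FPKM) and Sox2 (84.1 FPKM) at the top, and Sox11 had moved from the third to the sixth place. In Sp3 knockdown Sox4 led at 28.8 FPKM in the authors' deposited table, Sox2 stood at 17.8 and Sox3 was lowest at 2.62. The sum over the 10 genes was 134 FPKM in control, 289 in HDAC2 knockdown and 90.3 in Sp3 knockdown. The sum over all genes also differed, at 479383 FPKM in control, 617318 in HDAC2 knockdown and 426433 in Sp3 knockdown. Sums over gene lists, here and below, are not corrected for this.

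**Figure D1:**
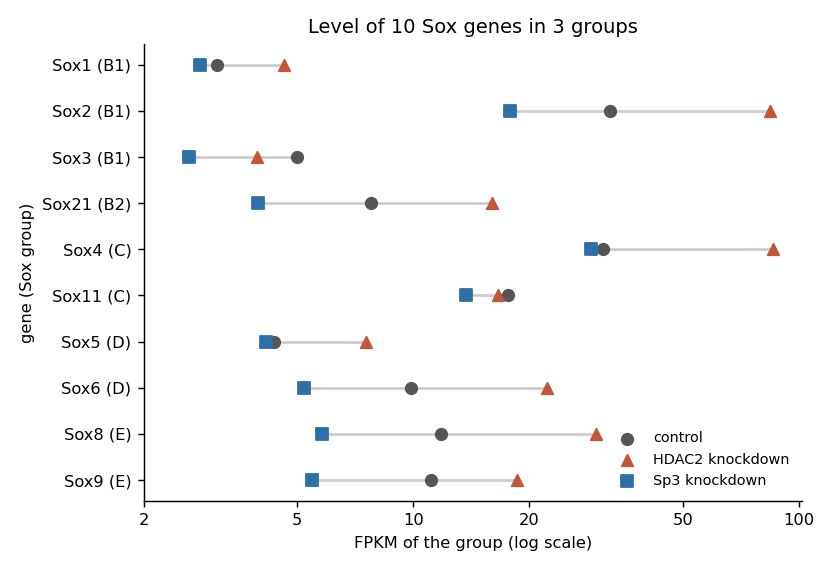
Deposited FPKM (log scale) of the 10 Sox genes in control (circles), HDAC2 knockdown (triangles) and Sp3 knockdown (squares), 1 value per group of 2 libraries, with a grey line over the range. The Sp3 knockdown value is the lowest of the 3 for each gene, and the HDAC2 knockdown value is the highest for all but Sox3 and Sox11.

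In HDAC2 knockdown most of these Sox genes were higher than in control, with the largest folds in Sox4, Sox2 and Sox8. At q under 0.05 the authors' deposited table called 7 of 10 higher and 0 lower, by Cuffdiff, against 24.6% higher and 3.60% lower over all genes tested. At an unadjusted p under 0.05 the authors' test gave 8 higher, Sox1 being the additional gene, and 0 lower. After centring 6 were higher and 0 lower, against 10.2% and 7.59% of all genes. The median log2 fold change of the 10 genes was 0.91, or 0.60 centred, beside 0.31 over all genes tested. These are bulk cultures, in which a change in the number of cells of a type and a change in RNA per cell cannot be told apart.

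In Sp3 knockdown most of them were lower than in control, with the largest falls in Sox9, Sox8 and Sox21. The authors' table, as deposited, called 0 of 10 higher and 7 lower, against 13.2% higher and 26.1% lower over all genes tested, and an unadjusted p under 0.05 gave the same counts. After centring 0 were higher and 6 lower, against 20.2% and 17.6% of all genes. The median log2 fold change was -0.89, or -0.76 centred, beside -0.13 over all genes tested. SEs were smaller here, with a median of 0.12 over the 10 genes, against 0.25 in HDAC2 knockdown, so a change of a given size was called more readily.

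**Figure D2:**
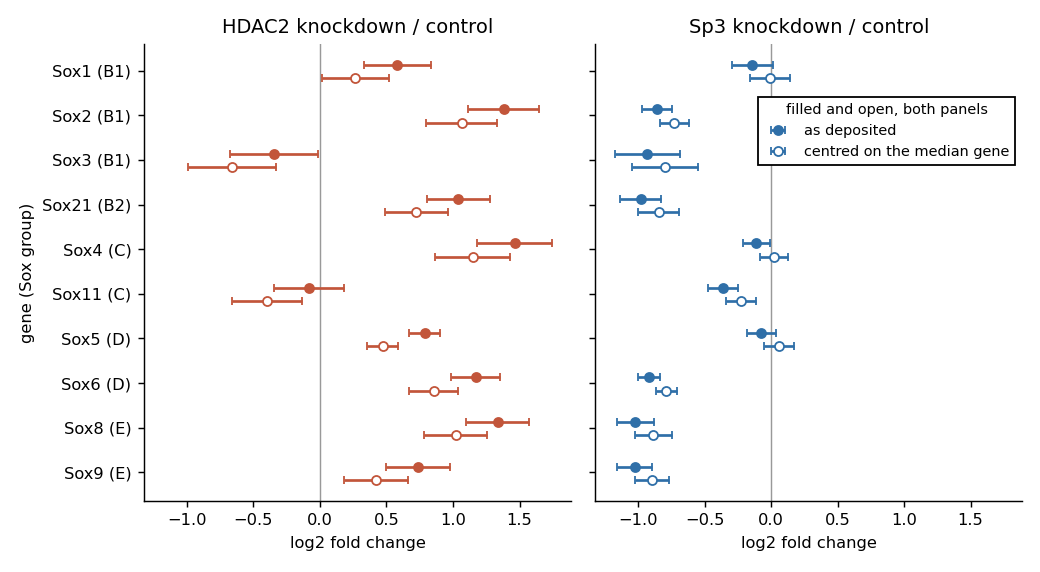
Log2 fold change ± implied SE of the 10 Sox genes against control in HDAC2 knockdown (left) and Sp3 knockdown (right), as deposited (filled) and centred on the median gene (open). On the left all but Sox3 and Sox11 lie above 0 in both forms. On the right Sox1, Sox4 and Sox5 lie close to 0 and the filled points of Sox2, Sox3, Sox6, Sox8, Sox9 and Sox21 lie between -1.03 and -0.86.

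Sox2, the best known factor of neural stem and progenitor cells, measured 32.3 FPKM in control, 84.1 in HDAC2 knockdown and 17.8 in Sp3 knockdown, per the authors' deposited tables. The knockdowns lay on opposite sides of the control. Its log2 fold change was 1.38 ± 0.26 in HDAC2 knockdown (q = 2.43e-06 by the authors' deposited table) and -0.86 ± 0.11 in Sp3 knockdown (q = 9.00e-13). Centred, the values were 1.06 and -0.73, and both passed (BH-adjusted normal p from the authors' statistic = 7.16e-04 and 1.47e-09). Sox2 is listed at chromosome 3, 34459302 to 34576915 in mm9, a span that it shares in the file with Sox2ot, the long noncoding RNA gene in which it lies. Sox2ot measured 0.987 FPKM in control, 1.51 in HDAC2 knockdown and 1.18 in Sp3 knockdown, per the authors' deposited tables, and was called in neither (q = 0.111 and 0.403). The level of Sox2 was 32.7 times that of Sox2ot in control, 55.6 times in HDAC2 knockdown and 15.1 times in Sp3 knockdown.

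The other members of group B1 were low and were not called in HDAC2 knockdown. Sox1 (chromosome 8, 12385770 to 12436732 in mm9, a span that also holds Gm5607) measured 3.08, 4.62 and 2.80 FPKM in control, HDAC2 and Sp3 knockdown, per the authors' deposited tables. It was called in neither, with log2 fold changes of 0.58 ± 0.25 (q = 0.0617 by the authors' deposited table) and -0.14 ± 0.15 (q = 0.498). Sox3 (chromosome X, 58144540 to 58146605) measured 4.99, 3.94 and 2.62 FPKM in the same order, as deposited by the authors. Its log2 fold change was -0.34 ± 0.33 in HDAC2 knockdown (q = 0.444 by the authors' deposited table). Sox3 fell by 0.93 ± 0.25 on the log2 scale in Sp3 knockdown (q = 0.00112 by the authors' deposited table), and by 0.80 centred (BH-adjusted normal p = 0.00483). The ratio of Sox2 to Sox3 was 6.48 in control, 21.4 in HDAC2 knockdown and 6.80 in Sp3 knockdown.

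Sox21 of group B2 (chromosome 14, 118632455 to 118636252 in mm9), which opposes group B1 proteins at shared target genes, measured 7.78, 16.0 and 3.95 FPKM in control, HDAC2 and Sp3 knockdown, per the authors' deposited tables. As for Sox2, the HDAC2 knockdown value was the highest and the Sp3 knockdown value the lowest. It rose by 1.04 ± 0.24 log2 in HDAC2 knockdown (q = 1.12e-04 by the authors' deposited table) and fell by 0.98 ± 0.15 in Sp3 knockdown (q = 5.37e-09). Centring left 0.72 and -0.85, with BH-adjusted normal p of 0.0171 and 4.10e-07.

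The 2 genes of group C, which act together in newborn neurons, received different calls, and a difference between them was not tested. Sox4 (chromosome 13, 29042598 to 29045551 in mm9) measured 31.1, 85.8 and 28.8 FPKM in control, HDAC2 and Sp3 knockdown, per the authors' deposited tables. It was high in HDAC2 knockdown, with a log2 fold change of 1.46 ± 0.28 (q = 2.62e-06 by the authors' deposited table), or 1.15 centred (BH-adjusted normal p = 5.83e-04). In Sp3 knockdown it was not called (-0.11 ± 0.10, q = 0.429 by the authors' deposited table), and the centred value was on the other side of 0 at 0.022. Sox11 (chromosome 12, 28019132 to 28027583) measured 17.6, 16.6 and 13.7 FPKM in the same order, as deposited by the authors. It was not called in HDAC2 knockdown (-0.085 ± 0.26, q = 0.833 by the authors' deposited table). In Sp3 knockdown the authors' deposited table called it lower, at -0.36 ± 0.11 (q = 0.00692), but the centred value of -0.23 did not pass (BH-adjusted normal p = 0.0993). The level of Sox4 was 1.77 times that of Sox11 in control, 5.17 times in HDAC2 knockdown and 2.10 times in Sp3 knockdown.

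Group D genes encode partners that dimerize with each other, and both were higher in HDAC2 knockdown. Sox5 (chromosome 6, 143776944 to 144158088 in mm9), which is known from deep-layer cortical neurons, measured 4.36, 7.52 and 4.14 FPKM in control, HDAC2 and Sp3 knockdown, per the authors' deposited tables. The control and Sp3 knockdown values lay close together. Sox5 rose by 0.79 ± 0.12 log2 in HDAC2 knockdown (q = 3.47e-10 by the authors' deposited table), or 0.47 centred (BH-adjusted normal p = 6.50e-04). In Sp3 knockdown its value was -0.073 ± 0.11 (q = 0.640 by the authors' deposited table), which centring turned to 0.060. Sox6 (chromosome 7, 122614857 to 123182258), which is known from interneurons and their precursors, measured 9.86, 22.2 and 5.21 FPKM in the same order, as deposited by the authors. It rose by 1.17 ± 0.18 log2 in HDAC2 knockdown (q = 5.04e-09 by the authors' deposited table) and fell by 0.92 ± 0.081 in Sp3 knockdown (q listed as 0). Both held after centring (0.86 and -0.79, BH-adjusted normal p from the authors' statistic = 6.21e-05 and 9.16e-21).

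In group E both genes rose in HDAC2 knockdown and fell in Sp3 knockdown by the authors' test. Sox8 (chromosome 17, 25702837 to 25707631 in mm9), which is expressed in glia, measured 11.8, 29.7 and 5.81 FPKM in control, HDAC2 and Sp3 knockdown, per the authors' deposited tables. Its log2 fold change was 1.33 ± 0.23 in HDAC2 knockdown (q = 2.00e-07 by the authors' deposited table) and -1.02 ± 0.14 in Sp3 knockdown (q = 6.51e-12). After centring 1.02 and -0.89 remained, with BH-adjusted normal p of 2.00e-04 and 2.03e-09. Sox9 (chromosome 11, 112643523 to 112649071), which drives the switch from neuron to glia formation and marks astrocytes, measured 11.1, 18.5 and 5.45 FPKM in the same order, as deposited by the authors. It was called higher in HDAC2 knockdown at 0.74 ± 0.24 (q = 0.00978 by the authors' deposited table), but its centred value of 0.42 did not pass (BH-adjusted normal p = 0.241). In Sp3 knockdown Sox9 fell by 1.03 ± 0.13 log2 (q = 5.91e-14 by the authors' deposited table), or 0.89 centred (BH-adjusted normal p = 5.67e-11).

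The place of a gene among all genes does not move with centring. In HDAC2 knockdown, among 13370 tested genes of at least 1 FPKM, the log2 fold change of Sox4 was higher than that of 95.5% of genes, that of Sox2 than 94.9%, that of Sox8 than 94.3% and that of Sox6 than 92.3%. Sox21 stood above 89.8%, Sox5 above 81.9%, Sox9 above 80.0% and Sox1 above 71.3%, whereas Sox11 stood above 19.0% and Sox3 above 8.84%. In Sp3 knockdown, among 13268 such genes, only 4.09% had a lower log2 fold change than Sox9, 4.18% than Sox8, 4.68% than Sox21, 5.49% than Sox3, 5.68% than Sox6 and 7.02% than Sox2. Sox11 had 29.2% of genes below it, and Sox1 (49.2%), Sox4 (52.1%) and Sox5 (55.6%) lay in the middle of the distribution.

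**Figure D3:**
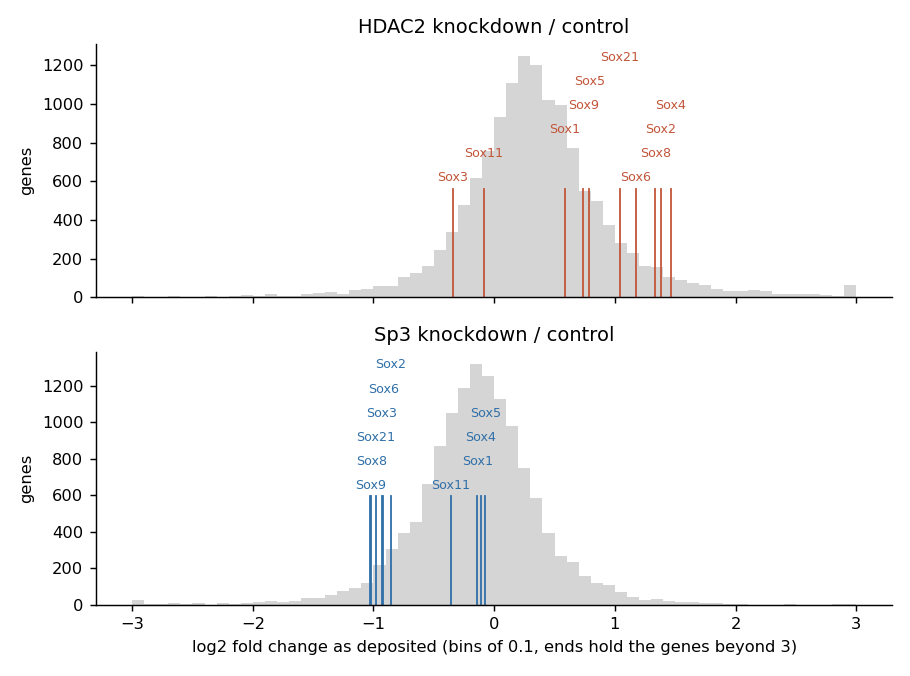
Number of tested genes of at least 1 FPKM by log2 fold change as deposited (grey, bins of 0.1) in HDAC2 knockdown (top) and Sp3 knockdown (bottom), with a line for each Sox gene. In the top panel 8 of the lines lie right of the peak and those of Sox3 and Sox11 left of it. In the bottom panel 6 lines stand together left of -0.8, and those of Sox1, Sox4 and Sox5 lie near the peak.

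The knockdowns were also compared with each other. At a BH-adjusted normal p under 0.05, 8 of 10 Sox genes were higher in HDAC2 than in Sp3 knockdown and 0 lower, against 26.6% and 2.16% of all genes tested in both tables, and an unadjusted p under 0.05 gave the same counts. With centring 6 were higher and 0 lower, against 7.86% and 6.87%. Sox8 differed most, at 2.35 ± 0.27 log2 or 5.11-fold (adjusted normal p from the authors' statistics = 7.53e-16), followed by Sox2 at 2.24 ± 0.29 (6.00e-13) and Sox6 at 2.09 ± 0.20 (1.08e-22). Sox21 (2.02 ± 0.28), Sox9 (1.77 ± 0.27) and Sox4 (1.57 ± 0.30) also passed with and without centring. For Sox5 the difference was 0.86 ± 0.16, and the centred value of 0.41 did not pass (adjusted normal p from the authors' statistics = 0.0626). For Sox1 it was 0.72 ± 0.29 with an adjusted normal p of 0.0491, and centred 0.27 with 0.647. By the authors' statistics Sox3 (0.59 ± 0.41, adjusted normal p = 0.288) and Sox11 (0.28 ± 0.29, adjusted normal p = 0.495) did not pass, and the centred value of Sox11 was -0.17.

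**Figure D4:**
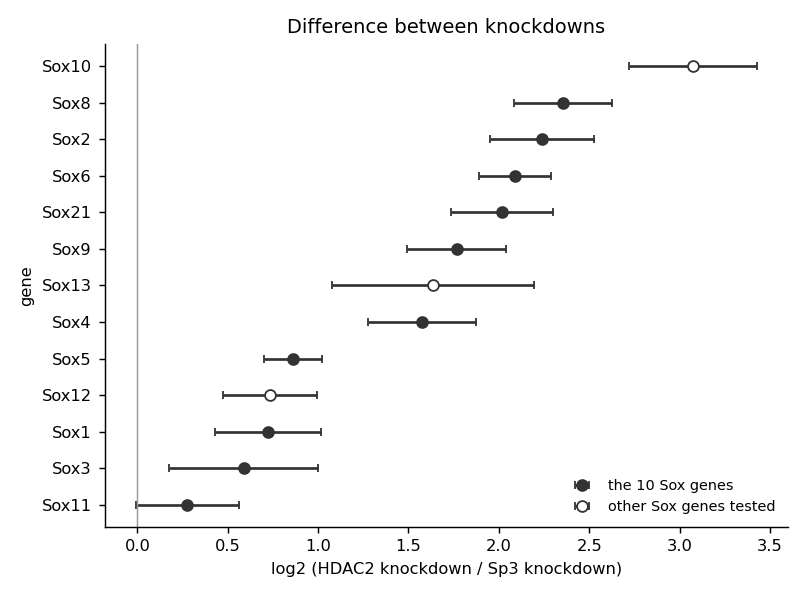
Log2 ratio of HDAC2 to Sp3 knockdown ± SE for the 10 Sox genes (filled) and the other tested Sox genes (open), ordered by size, without centring. Sox8, Sox2, Sox6 and Sox21 lie above 2 among the 10 genes, and Sox10 lies beyond them at 3.08.

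Of 10 further Sox genes in the tables, including Sry, only Sox10, Sox12 and Sox13 were tested by the authors. Sox10, the factor of the oligodendrocyte lineage, measured 4.21, 12.8 and 1.52 FPKM in control, HDAC2 and Sp3 knockdown, per the authors' deposited tables, and was called in both. Sox12, the third gene of group C, measured 7.97, 12.6 and 7.59 FPKM as deposited by the authors, and was called higher in HDAC2 knockdown only (q = 0.0189), a call that centring removed (BH-adjusted normal p = 0.355). Sox13 of group D measured 0.922, 1.64 and 0.529 FPKM in the authors' deposited tables and was not called. Sox7, Sox14, Sox15, Sox17, Sox18, Sox30 and Sry were at most 0.736 FPKM in any group of the authors' deposited tables, and Sox17 was listed at 0 in all 3.

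Factors that bind DNA beside Sox proteins were examined as a list of 11 genes. In HDAC2 knockdown the authors' deposited table called 8 of these higher and 0 lower (9 and 0 at an unadjusted p under 0.05), or 4 and 1 after centring. In Sp3 knockdown it called 0 higher and 3 lower, with or without adjustment of the authors' p, or 1 and 3 after centring. The shares called over all genes were 24.6% higher in HDAC2 and 26.1% lower in Sp3 knockdown, so the count of lower partner factors was near the background. Centred, the shares were 10.2% higher and 7.59% lower in HDAC2 knockdown, and 20.2% and 17.6% in Sp3 knockdown. The centred counts of 1 lower in HDAC2 knockdown and 1 higher in Sp3 knockdown were thus near or below the background. Nfia, which works with Sox9 in astrocyte formation, went from 8.84 FPKM to 17.3 in HDAC2 knockdown and 5.41 in Sp3 knockdown, per the authors' deposited tables (q = 1.78e-13 and 2.47e-14). Pou3f2, a POU factor that pairs with Sox2, is given in the authors' deposited table at 2.05 FPKM in control and 4.65 in HDAC2 knockdown (q = 3.93e-05). Chd7, a chromatin remodeller that binds Sox2, is given there by the authors at 6.61 FPKM in control and 2.95 with the Sp3 hairpins, with q listed as 0. All 3 genes named here also passed after centring.

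Markers of the cells in which Sox genes are known moved in the same libraries, and their part in the Sox results was not tested. The lists are not fully separate, since Slc1a3 counts among progenitor genes and astrocyte markers, and Pax6 among progenitor genes and partner factors. Of 15 tested progenitor and radial glia genes, the authors' deposited tables called 10 higher in HDAC2 knockdown and 9 lower in Sp3 knockdown, with none the other way (11 and 9 at an unadjusted p under 0.05). After centring the counts were 5 and 7. Over all genes tested, 24.6% were called higher in HDAC2 knockdown and 26.1% lower in Sp3 knockdown, or 10.2% and 17.6% after centring. All 16 listed progenitor and radial glia genes summed to 1155 FPKM in control, 3020 in HDAC2 knockdown and 781 in Sp3 knockdown. The authors' deposited table gives Prom1, a membrane protein of progenitors, at 2.79 FPKM in control and 9.89 in HDAC2 knockdown, with q listed as 0. Id4, an inhibitor of differentiation, measured 11.6, 32.6 and 5.91 FPKM in control, HDAC2 and Sp3 knockdown, per the authors' deposited tables.

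For astrocytes, the authors' deposited table called 7 of 14 marker genes higher in HDAC2 knockdown and 0 lower (10 and 0 at an unadjusted p under 0.05, 6 and 0 after centring). In Sp3 knockdown the authors' deposited table called 2 of 15 higher and 5 lower, and after centring 5 were higher and 5 lower. The shares over all genes were 24.6% higher and 3.60% lower in HDAC2 knockdown, and 13.2% and 26.1% in Sp3 knockdown. Centred, they were 10.2% and 7.59%, and 20.2% and 17.6%. The uncentred astrocyte counts in Sp3 knockdown were thus near the background. All 16 listed astrocyte markers summed to 1624 FPKM in control, 3810.5 in HDAC2 knockdown and 1532 in Sp3 knockdown. Gfap, the astrocyte filament gene, is given in the authors' deposited tables at 16.7 FPKM in control, 167 in HDAC2 knockdown (q listed as 0) and 9.13 in Sp3 knockdown (q = 7.02e-12). Its log2 fold change of 3.32 in HDAC2 knockdown was the highest of the tested astrocyte markers, whose median was 1.52. The median of the markers in Sp3 knockdown was -0.095, or 0.037 centred, and Clu (0.46), Slc1a3 (0.30), Acsbg1 (0.28) and Aqp4 (0.26), chosen after their values were seen, lay above 0 there. For the oligodendrocyte lineage, the authors' deposited tables called 11 of 15 markers higher in HDAC2 knockdown and 7 of 10 lower in Sp3 knockdown, with none the other way (14 and 7 at an unadjusted p under 0.05, 10 and 7 after centring). The markers tested in HDAC2 knockdown alone entered the test through a group in which they can be high, as Gpr17 did at 0.649 FPKM in control and 29.1 in HDAC2 knockdown, per the authors' deposited table. Of the 10 tested in both, a count added after seeing the data, 6 were called higher in HDAC2 and 7 lower in Sp3 knockdown, or 5 and 7 after centring. All 15 oligodendrocyte lineage markers, tested in both or not, summed to 225 FPKM in control, 457 in HDAC2 and 131 in Sp3 knockdown. Pdgfra, the receptor that marks their precursors, is given in the authors' deposited table at 43.8 FPKM in control and 20.9 in Sp3 knockdown, with q listed as 0.

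Of 7 genes of dividing cells, the authors' deposited table called 0 in HDAC2 knockdown (0 at an unadjusted p under 0.05), and 1 was lower after centring. In Sp3 knockdown the authors' deposited table called 7 of 7 lower, as did the centred values, against 26.1% of all genes, or 17.6% centred. The summed level of the 7 genes was 155 FPKM in control, 176 in HDAC2 and 89.3 in Sp3 knockdown. Immature neuron genes, among which group C factors act, were tested for 12 members, of which the authors' deposited tables called 4 higher and 0 lower in HDAC2 knockdown (5 and 0 at an unadjusted p under 0.05), and 3 each way in Sp3 knockdown. After centring the counts were 1 and 0, and 4 and 1. Over all genes 24.6% were called higher in HDAC2 knockdown, or 10.2% after centring, and 13.2% higher and 26.1% lower in Sp3 knockdown. The counts of immature neuron genes higher in HDAC2 knockdown and lower in Sp3 knockdown were thus near the background. Cd24a, a surface protein of immature neurons, fell by 1.31 ± 0.12 log2 from 74.5 FPKM in Sp3 knockdown (q listed as 0 in the authors' deposited table). Neurod2, a factor of maturing excitatory neurons, rose by 0.62 ± 0.10 log2 there (q = 4.39e-08 by the authors' deposited table), and the median of the list in Sp3 knockdown was 0.28, or 0.41 centred. All 13 listed immature neuron genes summed to 1571 FPKM in control, 1597 in HDAC2 knockdown and 1519.6 in Sp3 knockdown. Of 11 neuron markers the authors' deposited tables called 0 in HDAC2 knockdown (3 higher and 1 lower at an unadjusted p under 0.05), and 5 higher and 2 lower in Sp3 knockdown. After centring, 0 were higher and 1 lower in HDAC2 knockdown, and 5 higher and 1 lower in Sp3 knockdown. Of all genes, 7.59% were lower in HDAC2 knockdown after centring, and 20.2% were higher and 17.6% lower in Sp3 knockdown. The count of lower neuron markers in Sp3 knockdown was thus not above the background. The summed level of neuron markers was 1297 FPKM in control, 1347 in HDAC2 and 1538 in Sp3 knockdown. Beside these sums, all genes together summed to 479383, 617318 and 426433 FPKM in the same order. Microglia and macrophage markers summed to 6.65 FPKM or less in each group, with 2 of 10 tested and 2 or 3 listed at 0. Vascular and meningeal markers, of which 4 of 10 were tested, summed to 30.1, 44.3 and 53.5 FPKM in control, HDAC2 and Sp3 knockdown. Dcn alone made up most of the sums in control (26.6 FPKM) and Sp3 knockdown (49.9 FPKM). Of the 4 tested, the authors' deposited tables called 3 higher and 0 lower in HDAC2 knockdown, and 1 each way in Sp3 knockdown. With centring these counts were 2 and 0, and 2 and 1.

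**Figure D5:**
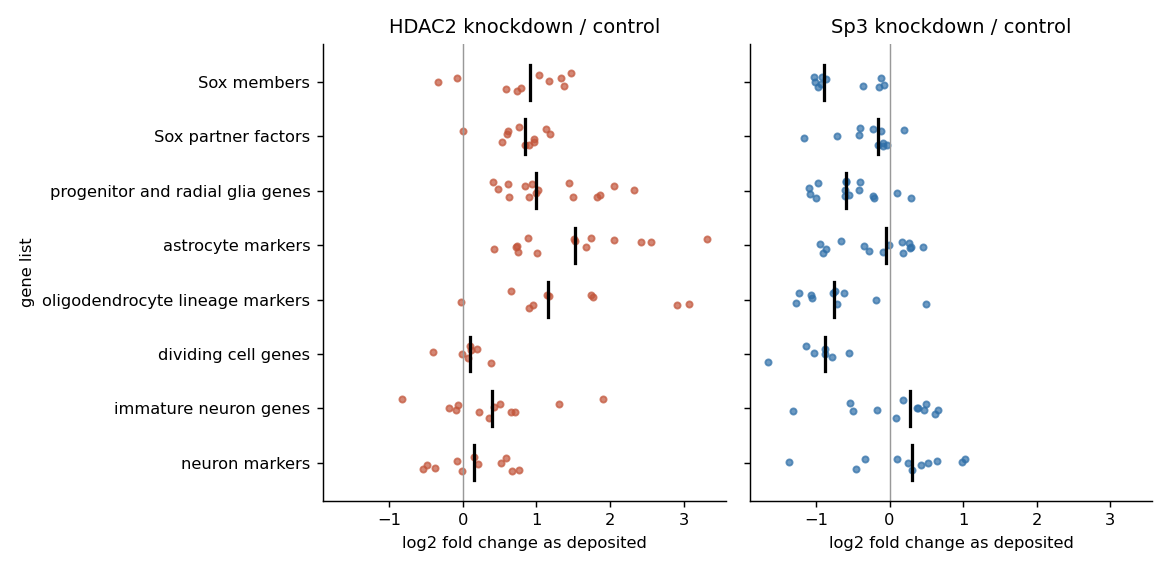
Log2 fold change as deposited of each gene tested in both comparisons (points, spread vertically at random) in the Sox set and 7 gene lists, with the median as a black bar, for HDAC2 knockdown (left) and Sp3 knockdown (right). The medians of the Sox set are 0.91 and -0.89, and those of the progenitor list are 1.00 and -0.58, while the medians of both neuron lists lie above 0 in both panels before centring.

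Genes whose pair of log2 fold changes was nearest to that of a Sox gene were sought among 11268 genes of at least 1 FPKM in all 3 groups. This likeness rests on 3 group values and a shared control. Nearest to Sox2 were Rnf144a (1.37 and -0.90 in HDAC2 and Sp3 knockdown), Lama5, a laminin chain (1.34 and -0.86), and Ptgds, a prostaglandin synthase (1.42 and -0.90). Nearest to Sox9 were Ssfa2 (0.71 and -1.04), Egln3, an oxygen-sensing hydroxylase (0.73 and -0.99), and Tor3a (0.74 and -0.99). Nearest to Sox11 were Trerf1 (-0.078 and -0.37), Lemd3 (-0.075 and -0.36) and Tsr1 (-0.076 and -0.37).

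Since Sp3 binds GC boxes, the 250 bases before the annotated starts were searched for GGGCGG and its reverse complement CCGCCC, overlaps between matches allowed. RefSeq promoters on GRCm38.p6, a build other than that of the expression tables, were at hand for 8 of the 10 genes, all but Sox3 and Sox9, with several starts for Sox6. The motif was present in 5 of 13 promoters of these genes, each of a different gene, and in 32.7% of all 32851 promoters of that length. Among all promoters with at least 60% GC in the window it was present in 76.5%. Of the Sox promoters with that GC content, 4 held it (Sox1, Sox2, Sox8 and 1 of Sox6) and that of Sox21 did not. Sox1 held 3 matches, Sox2, Sox8 and Sox11 held 2 each, and 1 of the 6 promoters of Sox6 held 4. Sox4, Sox5 and Sox21 held 0 in this window. For Sox5, whose locus spans 381145 bases in mm9, only 1 start was at hand, with 39.6% GC in its window. Whether the motif lies before other starts of Sox5 was not examined. Shown are a pair of genes that fell in Sp3 knockdown and hold the motif (Sox2 and Sox8), 1 that fell without it (Sox21), 1 that holds it and was not called there (Sox1) and 1 that was not called and lacks it (Sox4), each 5′ to 3′ on the strand of its gene with matches in capitals. They lie at chr3:34649745-34649994 (Sox2) and chr8:12395269-12395518 (Sox1) on the plus strand and, on the minus strand, at chr17:25570687-25570936 (Sox8), chr14:118237031-118237280 (Sox21) and chr13:28953700-28953949 (Sox4).
Sox2: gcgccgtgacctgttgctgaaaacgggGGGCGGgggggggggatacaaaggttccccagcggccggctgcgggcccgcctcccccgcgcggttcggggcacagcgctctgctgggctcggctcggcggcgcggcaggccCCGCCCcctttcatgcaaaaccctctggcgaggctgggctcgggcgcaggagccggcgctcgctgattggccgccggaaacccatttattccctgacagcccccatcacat
Sox8: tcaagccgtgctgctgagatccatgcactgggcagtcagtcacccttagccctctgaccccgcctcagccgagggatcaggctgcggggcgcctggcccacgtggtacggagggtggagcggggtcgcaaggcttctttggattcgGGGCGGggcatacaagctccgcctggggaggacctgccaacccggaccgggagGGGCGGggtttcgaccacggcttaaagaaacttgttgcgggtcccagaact
Sox21: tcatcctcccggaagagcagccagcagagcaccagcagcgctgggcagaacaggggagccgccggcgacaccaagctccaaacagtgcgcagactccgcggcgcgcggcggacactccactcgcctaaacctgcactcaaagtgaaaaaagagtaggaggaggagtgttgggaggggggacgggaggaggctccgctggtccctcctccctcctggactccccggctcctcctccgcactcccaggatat
Sox1: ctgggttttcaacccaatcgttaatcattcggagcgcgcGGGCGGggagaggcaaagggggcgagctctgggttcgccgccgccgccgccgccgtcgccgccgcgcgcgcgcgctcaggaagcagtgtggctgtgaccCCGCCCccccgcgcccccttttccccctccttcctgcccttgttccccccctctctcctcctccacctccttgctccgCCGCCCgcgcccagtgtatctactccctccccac
Sox4: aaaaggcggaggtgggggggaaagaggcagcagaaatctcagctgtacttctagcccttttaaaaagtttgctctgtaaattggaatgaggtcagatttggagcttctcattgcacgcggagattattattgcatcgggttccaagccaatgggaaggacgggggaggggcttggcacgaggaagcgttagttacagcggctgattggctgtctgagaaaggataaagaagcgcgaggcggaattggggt
GC content of these windows was 72.0% for Sox2, 65.6% for Sox8, 65.2% for Sox21, 71.2% for Sox1 and 50.8% for Sox4, beside a median of 52.4% over all promoters. The bases just after the starts of Sox2 and Sox11 were not found in any GENCODE M21 transcript of the same gene. A match describes the letters only, and binding of Sp3 to these windows was not measured here.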

How the data were processed

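RNA sequencing covered 6 libraries in 3 groups of 2. Alignment with TopHat and Bowtie, testing with Cuffdiff and the build mm9 are credited to the submitters' processing notes. Versions, annotation, strand setting and read length were not given in the sources used here. As deposited by the authors, there is 1 FPKM value per group and gene, which pools the libraries. Each knockdown has a file of its own, with 23235 genes. The test statistic, a score whose sign is opposite to that of the fold, and the p-value and q-value were deposited by the authors beside it. No read counts can be had from FPKM, so the depth of each library and the precision it gives are unknown.

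Log2 ratios were computed from the FPKM values with no pseudocount, and a gene counted as called at status OK and q under 0.05. An implied standard error (SE) was taken as the log2 ratio over the statistic, and values over 5 were treated as missing. Centred values had the median log2 ratio of tested genes reaching 1 FPKM in either group subtracted, and were given a normal p with Benjamini-Hochberg (BH) adjustment over all genes tested. The knockdowns were compared through the difference of both log2 ratios over the root of the summed squared SEs, which counts the error of the shared control in both terms. These functions were tested on simulated data with numpy 2.4.6, pandas 2.3.3 and scipy 1.17.1. Alternatives were other scalings, thresholds, filters, adjustments and pseudocounts.

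The members and gene lists were chosen with earlier results of these data known. Named genes are the Sox genes, the 2 members of each list with the smallest p in each table, and the 3 genes nearest to Sox2, Sox9 and Sox11 by Euclidean distance between pairs of log2 ratios, without clone or predicted gene names. Not every named list gene is printed. Sequences are from RefSeq (GRCm38.p6) and GENCODE M21, matched by symbol, and no coordinates were moved between builds.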

Additional observations from a re-analysis of the deposited data

How the results depend on the processing

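In 40 recomputations with another scaling, threshold, fold minimum, FPKM filter or adjustment, the counts of Sox genes called higher or lower stayed within 1.5 times the count reported. Many of these recomputations concern counts reported as 0, which stayed at 0. Those were the counts lower in HDAC2 knockdown, higher in Sp3 knockdown and lower in HDAC2 than in Sp3 knockdown. Centring moved single genes, as given beside them. It ended the calls of Sox9 in HDAC2 knockdown, of Sox11 in Sp3 knockdown, and of Sox1 and Sox5 between knockdowns, and it changed the sign of uncalled values of Sox4 and Sox5 in Sp3 knockdown and of Sox11 between knockdowns. With 1 FPKM added before the log, Sox5 in HDAC2 knockdown (0.67) and Sox6 in Sp3 knockdown (-0.81) moved by more than their SE, and Sox3 (-0.73) and Sox21 (-0.83) in Sp3 knockdown moved further but by no more than theirs. No paired analysis was possible because the tables hold 1 value per group, and for the same reason no library could be left out. Read depth is unknown, so how far it limits the low values of Sox1 and Sox3 was not tested.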
